A study of Mus musculus with 8 samples.

Results

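The nuclear genes for proteins of the mitochondrial ribosome were compared between RAW264.7 cells kept with TABS and RAW264.7 cells kept with HA/Mg. Members were all protein-coding genes whose symbol is Mrpl or Mrps followed by a number and at most 1 letter, which gave 78 of the 55335 gene identifiers in the deposited table. Of these, 49 carry a large subunit symbol (Mrpl) and 29 a small subunit symbol (Mrps), and all 78 passed the filter of at least 1 FPKM in at least 4 of the 8 libraries. FPKM is a fragment count divided by transcript length and by the library's total. The rule used the symbols and no measured value.

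RAW264.7 is a mouse macrophage-like line, and RNA-seq was run on total RNA of 4 TABS libraries and 4 HA/Mg libraries, numbered replicates 5 to 8 in each group. TABS is a material that the series calls a Trio-Active bone scaffold, and its components are not described in the labels. HA/Mg is hydroxyapatite doped with magnesium ions, and culture lasted 3 days with either material. Cells without a scaffold are not among the groups, so each change below is TABS relative to HA/Mg. The groups follow the sample titles. The library names mark TABS with H and HA/Mg with L, letters that the sources used here do not explain, and an exchange of the groups would turn every direction round. Whether the libraries stem from different cultures is not stated, and the p-values therefore rest on a spread between libraries that may be technical. In bulk RNA, fewer cells of a kind and less RNA per cell cannot be told apart.

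Mitochondria have ribosomes of their own, which translate the few messenger RNAs encoded by mitochondrial DNA, all of them for subunits of the respiratory chain and the ATP synthase. Their RNA components come from mitochondrial DNA, while their proteins are encoded in the nucleus, made in the cytoplasm and imported. Many of these proteins have a counterpart in bacterial ribosomes, and the others are specific to mitochondria.

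Between 9908 and 10280 genes reached 1 FPKM in a library. The first principal component held 40.2% of the variance. On it the 4 TABS libraries lay between 5.72 and 16.5 and HA/Mg replicates 5, 7 and 8 between -16.4 and -12.7. HA/Mg replicate 6, at 2.62, was closer to the TABS libraries than to its own group. Counts are therefore also given without HA/Mg replicate 6. The 8 macrophage markers were all measured above the filter, with summed FPKM of 2470 to 2770 with TABS and 2034 to 2436 with HA/Mg. Of these, 3 (Csf1r, Cd68 and Cd14) were higher with TABS (37.5%, against 5.07% of all genes). The estimates of Itgam (log2 change -0.08) and Ptprc (-0.12) were negative, and neither passed the test. The call of Cd68 was lost without HA/Mg replicate 5, 7 or 8, and that of Cd14 without HA/Mg replicate 5. Of the 28 markers of the 7 other cell types examined, Dcstamp was the single one to pass the filter. The part of the macrophage markers' change in the results below was not tested.

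Coding sequences of 4 called members differed in base composition. The first 90 coding bases (5′ to 3′, GENCODE M21 annotation of GRCm38) are shown for the 2 called members with the largest increase with TABS, Mrpl54 and Mrpl36, and for the 2 with the largest decrease, Mrps31 and Mrpl1, with G and C in capitals. Over the whole coding sequence, G and C made up 60.7% in Mrpl54, 59.5% in Mrpl36, 47.3% in Mrps31 and 41.6% in Mrpl1. In the 90 bases shown the shares were 72.2%, 65.6%, 61.1% and 51.1%, so there Mrps31 was close to Mrpl36. Mrpl24, also called higher with TABS, is not shown, and its transcript had 49.4% GC.
Mrpl54: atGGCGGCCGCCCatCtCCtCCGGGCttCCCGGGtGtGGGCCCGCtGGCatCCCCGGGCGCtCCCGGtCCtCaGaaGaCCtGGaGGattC
Mrpl36: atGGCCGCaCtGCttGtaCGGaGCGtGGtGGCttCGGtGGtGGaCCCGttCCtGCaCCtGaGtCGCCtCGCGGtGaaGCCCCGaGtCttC
Mrps31: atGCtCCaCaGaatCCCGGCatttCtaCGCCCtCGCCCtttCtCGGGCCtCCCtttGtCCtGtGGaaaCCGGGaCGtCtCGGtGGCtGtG
Mrpl1: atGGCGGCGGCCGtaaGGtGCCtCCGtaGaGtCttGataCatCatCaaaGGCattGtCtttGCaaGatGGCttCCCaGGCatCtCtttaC

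Promoters are shown for 3 members that start beside a gene read in the opposite direction, since in these pairs the neighbour was lower with TABS and the member did not pass the test. They run from 250 bases before to 50 bases after the start in RefSeq (GRCm38.p6, all on the plus strand), and capitals mark the letters CCGGAAG or their reverse complement, the core that ETS-family transcription factors bind. The windows are chr14:57825989-57826288 for Mrpl57, chr6:125191950-125192249 for Mrpl51 and chr5:100798509-100798808 for Mrps18c. Distances to neighbours were taken from GENCODE M21 starts, which can differ from those in RefSeq. The GENCODE start of Mrpl51, chr6:125191801, lies before its window, so the bases between Mrpl51 and its neighbour are not shown. That of Mrps18c, chr5:100798627, lies inside its window. Mrpl13, in another pair of this kind, had no RefSeq promoter.
Mrpl57: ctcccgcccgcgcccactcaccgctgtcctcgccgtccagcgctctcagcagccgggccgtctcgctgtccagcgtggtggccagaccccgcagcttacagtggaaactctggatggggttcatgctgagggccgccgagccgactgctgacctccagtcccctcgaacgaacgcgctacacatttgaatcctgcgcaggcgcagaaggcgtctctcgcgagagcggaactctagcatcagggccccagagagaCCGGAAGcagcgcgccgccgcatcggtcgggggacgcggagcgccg
Mrpl51: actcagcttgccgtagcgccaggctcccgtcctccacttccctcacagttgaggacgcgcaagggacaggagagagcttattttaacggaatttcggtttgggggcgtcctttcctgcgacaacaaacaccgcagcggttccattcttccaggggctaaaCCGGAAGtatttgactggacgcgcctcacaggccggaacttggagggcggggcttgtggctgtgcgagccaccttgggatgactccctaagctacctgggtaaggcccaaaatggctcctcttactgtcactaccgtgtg
Mrps18c: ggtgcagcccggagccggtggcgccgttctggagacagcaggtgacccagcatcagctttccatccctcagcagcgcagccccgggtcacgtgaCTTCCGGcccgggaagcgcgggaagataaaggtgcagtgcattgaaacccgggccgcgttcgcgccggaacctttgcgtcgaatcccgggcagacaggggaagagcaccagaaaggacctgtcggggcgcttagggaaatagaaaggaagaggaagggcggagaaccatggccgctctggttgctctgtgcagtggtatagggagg

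Levels of the members spanned an 18.7-fold range of mean FPKM over all 8 libraries. In the large subunit the highest was Mrpl12, described below, followed by Mrpl24 and by Mrpl10, which carries the stalk proteins that contact elongation factors. Mrpl10 averaged 59.6 ± 1.96 FPKM in TABS libraries and 57.1 ± 1.04 FPKM in HA/Mg libraries (SD, n = 4 each, as for all means below). The lowest were Mrpl33, with 4.76 ± 0.166 FPKM in TABS and 4.37 ± 0.528 in HA/Mg libraries, and Mrpl32, with 5.33 ± 1.15 FPKM in TABS and 4.58 ± 1.20 in HA/Mg libraries. Next was Mrpl48, with 5.82 ± 0.620 FPKM in TABS and 5.43 ± 0.581 in HA/Mg libraries. None of these last 3 passed the test, and their groups overlapped. Mrpl33 shares 261 exon bases on the same strand with Gm43809, which was itself higher with TABS (limma, log2 change 0.40 ± 0.10, SE, adjusted p = 0.0309).

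In the small subunit Mrps18b was highest, with 42.5 ± 3.67 FPKM in TABS and 42.7 ± 3.82 in HA/Mg libraries. Mrps15, with a bacterial counterpart, averaged 37.2 ± 3.59 FPKM in TABS and 38.0 ± 2.24 in HA/Mg libraries, and Mrps21, also with a bacterial counterpart, followed. The lowest were Mrps35, with 4.77 ± 0.781 FPKM in TABS and 5.14 ± 0.379 in HA/Mg libraries, Mrps17, with 6.46 ± 0.200 FPKM in TABS and 6.02 ± 0.435 in HA/Mg libraries, and Mrps31. Of these, Mrps31 alone passed the test. The order of the levels was nearly the same with both materials (Spearman's rho 0.99 over 78 genes of the same libraries, given as a description). The median member varied by 7.86% between TABS libraries and by 6.06% between HA/Mg libraries (SD over mean).

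Most mitochondrial ribosomal protein genes differed little between the materials, and those past the threshold moved both ways. For 53 of the 78 members (67.9%) the group means were within 10% of each other, against 47.5% of all genes tested. At an adjusted p under 0.05 (limma, Benjamini-Hochberg over all 10161 genes tested), 8 of 78 members (10.3%) had changed, against 18.1% of all genes tested. Of the 8, 3 were higher with TABS, where 5.07% of all genes were, and 5 were lower, where 13.1% of all genes were. The libraries of the groups did not overlap for 11 members (14.1%), against 23.1% of all genes tested, with 5 members above (all genes, 8.05%) and 6 below (all genes, 15%). An unadjusted p under 0.05 was reached by 22 of 78 members (28.2%), 15 in the large and 7 in the small subunit, and by 3703 of all genes tested (36.4%).

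**Figure D1:**
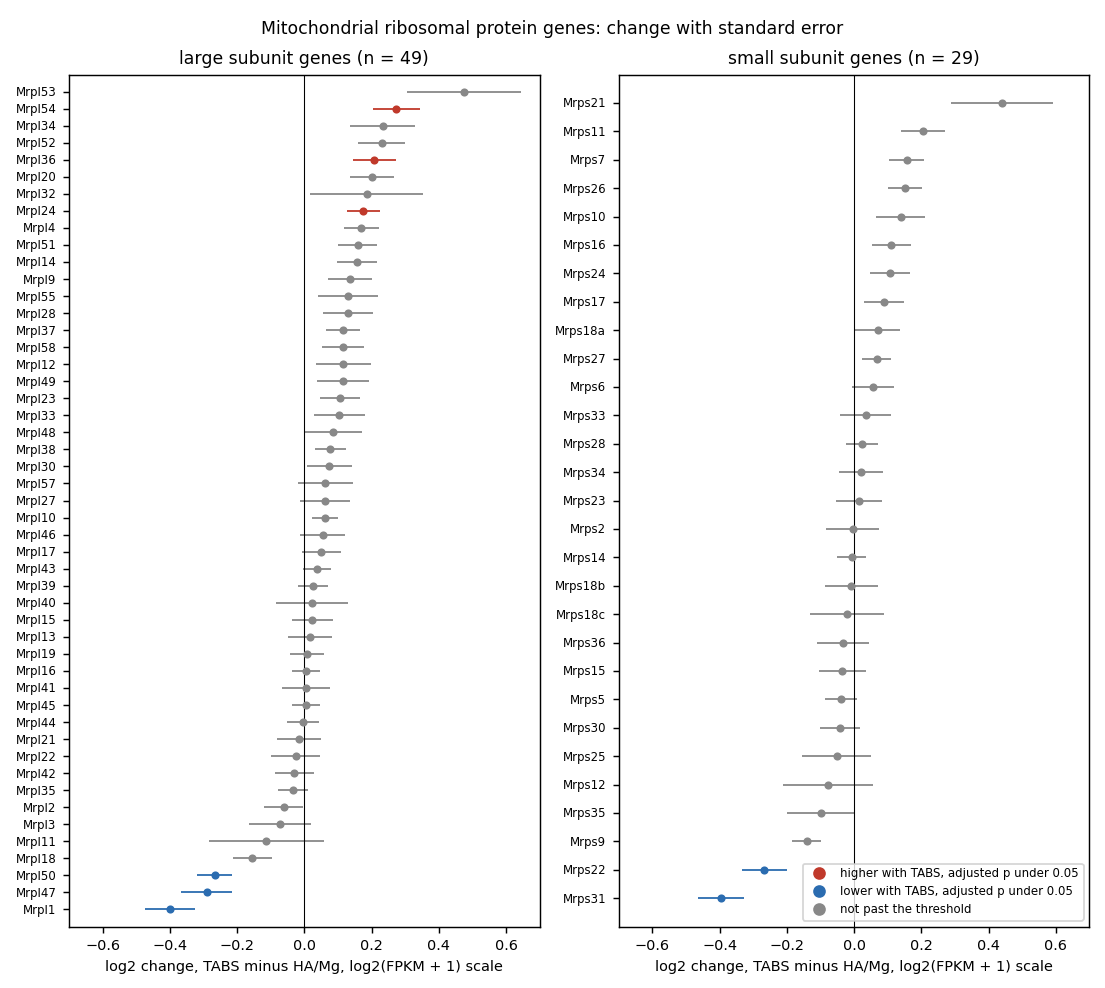
Log2 change (TABS minus HA/Mg, horizontal, computed from log2(FPKM + 1)) of each of the 49 large subunit genes on the left and the 29 small subunit genes on the right, with points for the estimate and bars for its standard error. Red points mark the 3 members that were higher and blue points the 5 that were lower at an adjusted p under 0.05, and most of the others lie close to 0.

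These counts depended on single libraries. Without HA/Mg replicate 6, 14 members were called (17.9%, against 32.7% of all genes tested), whereas without HA/Mg replicate 5 or without HA/Mg replicate 7 the count was 3 (3.85%, against 4.22% and 4.67% of all genes). Without HA/Mg replicate 8 it was 4 (5.13%, against 6.83%), and without TABS replicate 7 it was 5 (6.41%, against 9.28%). The members' share was thus close to that of all genes where HA/Mg replicate 5, 7 or 8 was left out. It was also close under median-of-ratios scaling, where 14 members were called (17.9%, against 18.6% of all genes). Over all genes 515 were higher and 1327 lower with TABS. This split was 862 and 1033 under median-of-ratios scaling, 806 and 1192 under quantile normalization, and 251 and 1549 after rescaling to equal sums.

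The large subunit had 6 called members of 49 (12.2%, against 18.1% of all genes), 3 higher and 3 lower with TABS. Mrpl54, a mitochondria-specific protein (ENSMUSG00000034932, GRCm38 chr10:81264713-81266934, minus strand), had 18.9, 18.6, 21.8 and 21.9 FPKM in TABS replicates 5 to 8, against 17.3, 17.4, 15.2 and 16.5 FPKM in HA/Mg replicates 5 to 8. All TABS libraries lay above all HA/Mg libraries, and TABS replicates 7 and 8 were the highest. Its mean was 22.3% higher with TABS, a log2 change of 0.27 ± 0.069 (SE, adjusted p = 0.0293). Without TABS replicate 7 or 8, or without HA/Mg replicate 5, 7 or 8, the adjusted p was 0.0667 to 0.0857.

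Mrpl36, the counterpart of a small zinc-binding protein of the bacterial large subunit (ENSMUSG00000021607, chr13:73328513-73332178, plus strand), had 20.5, 18.7, 21.3 and 19.5 FPKM in the TABS libraries and 17.1, 16.2, 16.3 and 19.1 in the HA/Mg libraries. The groups overlapped, since HA/Mg replicate 8 lay above TABS replicate 6. The mean was 16.4% higher with TABS (log2 change 0.21 ± 0.063, adjusted p = 0.0495), just inside the threshold, and leaving out any 1 library other than HA/Mg replicate 8 gave adjusted p-values of 0.0533 to 0.133. Mrpl36 shares 30 exon bases on the other strand with Ndufs6.

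Mrpl24, the counterpart of a bacterial protein that starts large subunit assembly (ENSMUSG00000019710, chr3:87919506-87923672, plus strand), had 68.1, 70.7, 68.4 and 66.3 FPKM in the TABS libraries and 57.6, 66.0, 59.9 and 58.4 in the HA/Mg libraries. The groups did not overlap, but HA/Mg replicate 6 came close to the lowest TABS library. The mean was 13.0% higher with TABS (log2 change 0.18 ± 0.049, adjusted p = 0.0405). Leaving out any 1 library other than HA/Mg replicate 6 gave 0.0588 to 0.117, and without HA/Mg replicate 6 it was 0.00643.

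Mrpl1, whose bacterial counterpart forms the stalk where spent transfer RNA leaves the ribosome (ENSMUSG00000029486, chr5:96209493-96266727, plus strand), had 4.72, 5.97, 5.59 and 5.92 FPKM in the TABS libraries and 8.24, 7.44, 7.37 and 7.44 in the HA/Mg libraries. Every TABS library lay below every HA/Mg library. The mean fell by 27.2% with TABS (log2 change -0.40 ± 0.074, adjusted p = 0.0133), and the call held without each of the 8 libraries in turn.

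Mrpl50, a mitochondria-specific protein (ENSMUSG00000044018, chr4:49512596-49521093, minus strand), had 11.2, 11.2, 11.6 and 12.1 FPKM in the TABS libraries and 14.1, 13.3, 13.9 and 15.0 in the HA/Mg libraries. The gap between the groups was wider than the range of the TABS libraries. Its log2 change was -0.27 ± 0.051 (adjusted p = 0.0138), and this call too held without each library in turn.

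Mrpl47, the counterpart of a bacterial protein at the exit of the peptide tunnel (ENSMUSG00000037531, chr3:32725397-32737605, minus strand), had 4.57, 5.33, 5.22 and 6.04 FPKM in the TABS libraries and 6.69, 6.28, 7.16 and 6.58 in the HA/Mg libraries. The groups did not overlap, although TABS replicate 8 approached HA/Mg replicate 6. Its log2 change was -0.29 ± 0.076 (adjusted p = 0.0328). The adjusted p was 0.0616 to 0.0975 without any 1 library other than TABS replicate 8 and HA/Mg replicate 6. Mrpl47 shares 452 exon bases with Actl6a and 616 with Ndufb5, both on the other strand and neither past the threshold, and since strand in counting is not given, reads in those bases could not be assigned.

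The small subunit had 2 called members of 29 (6.9%, against 18.1% of all genes), both mitochondria-specific and both lower with TABS. Mrps31 (ENSMUSG00000031533, chr8:22411361-22429665, plus strand) had 5.81, 6.30, 6.70 and 6.95 FPKM in the TABS libraries and 8.67, 8.20, 8.59 and 9.70 in the HA/Mg libraries. Here too the gap between the groups was wider than the range of the TABS libraries. Its log2 change was -0.40 ± 0.069 (adjusted p = 0.0114), and it was called without each library in turn, with adjusted p-values up to 0.0439.

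Mrps22, a protein whose gene is mutated in a human mitochondrial disease of infancy (ENSMUSG00000032459, chr9:98588730-98601660, minus strand), had 6.38, 7.30, 7.35 and 7.38 FPKM in the TABS libraries and 9.15, 7.88, 8.86 and 9.12 in the HA/Mg libraries. TABS replicate 5 was the lowest and HA/Mg replicate 6 the lowest of its group, still above all TABS libraries. Its log2 change was -0.27 ± 0.066 (adjusted p = 0.0273), and without TABS replicate 5 or HA/Mg replicate 5, 7 or 8 the adjusted p was 0.0626 to 0.0855.

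**Figure D2:**
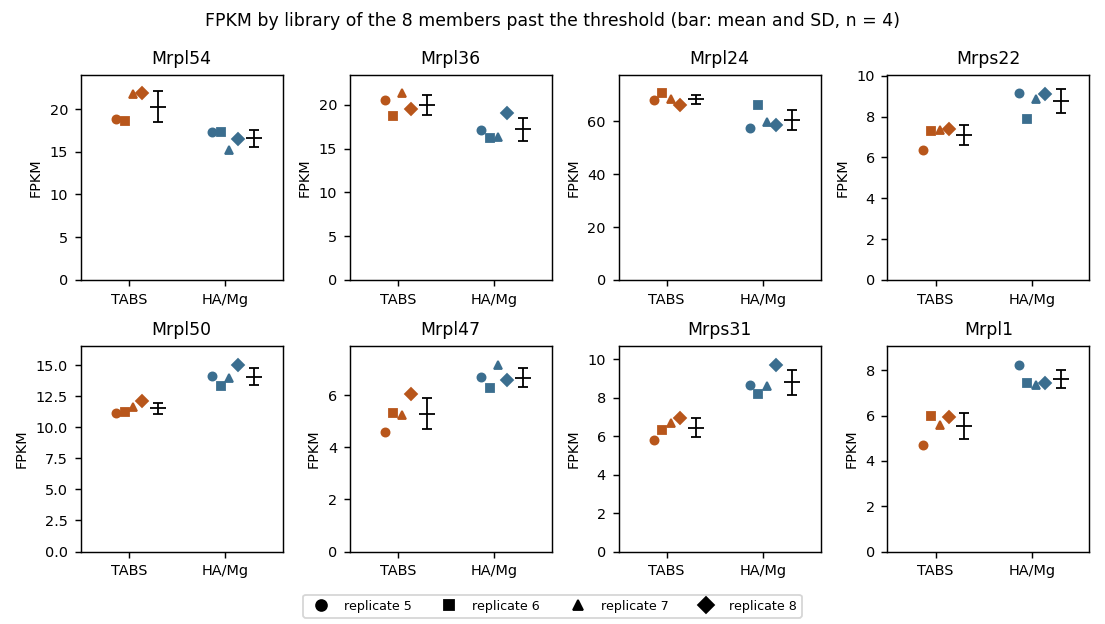
FPKM (vertical, from 0) in each library of the 8 members past the threshold, TABS left and HA/Mg right in each panel, with a marker shape for each replicate number and a black bar for the mean and SD of 4 libraries. Mrpl54, Mrpl36 and Mrpl24 were higher with TABS, where Mrpl36 overlaps, and Mrps22, Mrpl50, Mrpl47, Mrps31 and Mrpl1 were lower with no overlap.

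Mrpl53 and Mrps21, with large differences and a wide scatter, did not pass the test, and other members narrowly missed the threshold. Mrpl53, Mrps9, Mrpl52 and Mrpl4 were picked out after their values were seen. Mrpl53 had 9.73, 9.93, 11.7 and 6.83 FPKM in the TABS libraries and 5.44, 7.04, 8.53 and 5.31 in the HA/Mg libraries (log2 change 0.47 ± 0.17, adjusted p = 0.0759). Mrpl53 shares 695 exon bases on the same strand with Gm42688, as many as its longest protein-coding transcript has. Gm42688 averaged 4.64 ± 0.320 FPKM with TABS and 4.71 ± 0.348 with HA/Mg, and reads in the shared bases could not be assigned to 1 gene. Mrps21, named for its level, had 36.3, 39.2, 46.3 and 44.9 FPKM in the TABS libraries and 35.1, 26.0, 38.9 and 23.6 in the HA/Mg libraries (log2 change 0.44 ± 0.15, adjusted p = 0.0703). In both genes the groups overlapped. Mrps9 missed the threshold by the least (log2 change -0.14 ± 0.043, adjusted p = 0.0503), with 11.1, 11.2, 11.2 and 11.7 FPKM with TABS, all below the 13.0, 12.6, 12.3 and 12.3 FPKM with HA/Mg. Mrpl52 followed at 0.0511 and Mrpl4 at 0.0531, both with a higher mean in TABS libraries.

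The large subunit leaned toward higher values with TABS and the small subunit was nearly balanced. The gap between their median log2 changes was 0.047. The SD between libraries of a group was about as large, 0.0499 for the large and 0.0496 for the small subunit's median. Both subunits were read in the same libraries, so this SD is not the spread of the gap, which was not tested. The median log2 change was 0.06 over the 49 large subunit genes, of which 37 had a positive estimate, and 0.01 over the 29 small subunit genes, of which 15 did. Over all genes tested the median was -0.04, and 42.3% of estimates were positive. The summed FPKM of the large subunit was 1219, 1225, 1321 and 1276 in TABS replicates 5 to 8, against 1189, 1252, 1181 and 1165 in HA/Mg replicates 5 to 8. HA/Mg replicate 6 lay among the TABS libraries and the groups overlapped. The sum of the small subunit was 545, 578, 613 and 599.9 with TABS, against 560.0, 556, 580.4 and 557 with HA/Mg, and here TABS replicate 5 was the lowest of all 8 libraries. The sum of the large over that of the small subunit was 2.12 to 2.24 with TABS and 2.03 to 2.25 with HA/Mg, so that the groups overlapped.

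**Figure D3:**
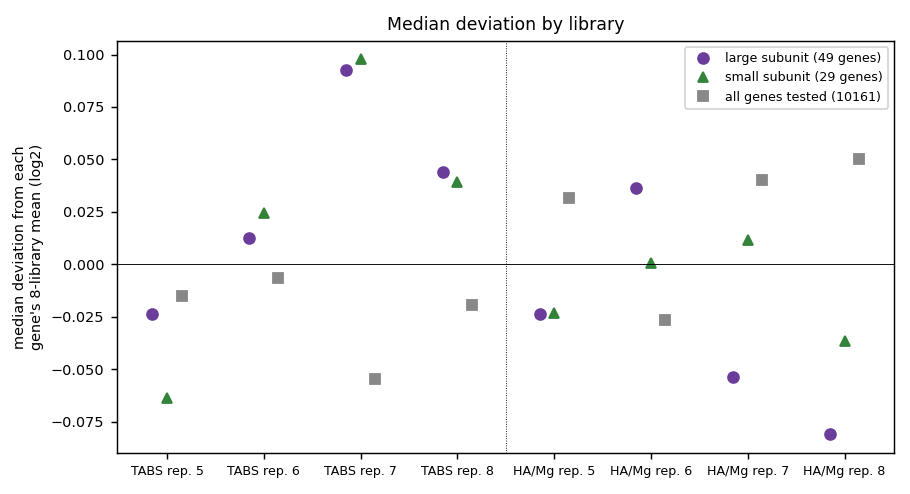
Median deviation (log2, vertical) of each library from every gene's mean over the 8 libraries, for the large subunit (circles), the small subunit (triangles) and all genes tested (squares), TABS on the left and HA/Mg on the right. TABS replicate 7 is the highest for both subunits, at 0.093 and 0.098, and the lowest for all genes, at -0.055, and TABS replicate 5 lies below 0 for both subunits.

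The large subunit's median stayed positive under the 4 scalings examined, the small subunit's was negative after rescaling to equal sums, and both stood above the median of all genes in each. Under median-of-ratios scaling the median was 0.12 for the large and 0.07 for the small subunit. There 10 large subunit genes were called (20.4%, 7 higher) and 4 small subunit genes (13.8%, 2 higher), against 18.6% of all genes. Under that scaling 11.5% of the members were higher, against 8.48% of all genes. After rescaling to equal sums the small subunit's median was -0.03 and the large subunit's 0.01. The large subunit's median stood above that of all genes by 0.098 as deposited, by 0.11 under median-of-ratios scaling, by 0.091 after rescaling to equal sums and by 0.080 under quantile normalization. For the small subunit the same differences were 0.051, 0.058, 0.044 and 0.019.

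Structures of the mammalian ribosome place the products of Mrps18a and Mrps30 in the large subunit in spite of their symbols. Moved there, they left the counts of called members as they were. These were 6 of 51 large (11.8%) and 2 of 27 small subunit genes (7.41%), against 18.1% of all genes. Among large subunit genes with a bacterial counterpart 2 of 30 were higher (Mrpl24 and Mrpl36) and 2 lower (Mrpl1 and Mrpl47), 6.67% each. Among the mitochondria-specific ones 1 of 19 was higher (Mrpl54) and 1 lower (Mrpl50), 5.26% each. Over all genes 5.07% were higher and 13.1% lower. In the small subunit none of the 16 genes with a bacterial counterpart passed the test in limma, although 4 (25%) had an unadjusted p under 0.05, where 36.4% of all genes did. Of the 13 mitochondria-specific genes 2 (15.4%) were lower (Mrps31 and Mrps22), where 13.1% of all genes were, and no difference between these classes was tested. Under median-of-ratios scaling Mrps7 and Mrps11, which have bacterial counterparts, passed the threshold as well. Mrps9, also with a bacterial counterpart, had an adjusted p of 0.0503 in limma. It was called with both other pseudocounts, with a mean of at least 5 FPKM, after rescaling to equal sums and among protein-coding genes only. The call was also made with the length and GC trends removed and without HA/Mg replicate 6.

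Of the 12 members named by role, Mrps22, described above, was the single one past the threshold. Mrpl12, which in human cells also binds the mitochondrial RNA polymerase, had 85.5, 76.4, 96.0 and 97.4 FPKM in the TABS libraries and 76.7, 89.5, 79.2 and 81.2 in the HA/Mg libraries (log2 change 0.12 ± 0.082, adjusted p = 0.332). Mrpl58, a peptidyl-tRNA hydrolase that frees stalled ribosomes, averaged 8.38 ± 0.669 FPKM with TABS and 7.65 ± 0.325 with HA/Mg (log2 change 0.12 ± 0.063, adjusted p = 0.213). The groups overlapped in both.

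Mrpl44, related to ribonuclease III, averaged 24.6 ± 0.379 FPKM with TABS and 24.6 ± 1.35 with HA/Mg, with a log2 change of -0.0030 ± 0.047. Mrpl45, which in mammals ties the ribosome to the inner membrane, averaged 56.6 ± 2.45 FPKM with TABS and 56.3 ± 1.12 with HA/Mg, with a log2 change of 0.0051 ± 0.042. These estimates were the closest to 0 among the large subunit genes named by role, and with such errors changes of a few percent were not detectable. Mrpl3, the counterpart of a protein that reaches toward the peptidyl transferase centre, averaged 15.4 ± 1.45 FPKM with TABS and 16.3 ± 1.99 with HA/Mg (log2 change -0.07 ± 0.091).

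In the small subunit, Mrps12, the counterpart of a protein at the decoding site, had 12.7, 11.5, 7.61 and 11.8 FPKM in the TABS libraries and 11.8, 10.2, 12.1 and 11.6 in the HA/Mg libraries. TABS replicate 7 alone lay low, and the log2 change was -0.08 ± 0.13. Mrps16, which has a bacterial counterpart, averaged 12.5 ± 0.797 FPKM with TABS and 11.5 ± 0.490 with HA/Mg (log2 change 0.11 ± 0.057). Mrps36, whose product is also described as part of the 2-oxoglutarate dehydrogenase complex, averaged 10.8 ± 1.18 FPKM with TABS and 11.0 ± 0.666 with HA/Mg (log2 change -0.03 ± 0.077).

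The Mrps18 family has 3 members related to 1 bacterial protein, which were read at different levels. Mrps18b had the highest level, given above, with a log2 change of -0.0086 ± 0.079. Mrps18a averaged 24.2 ± 1.95 FPKM with TABS and 22.9 ± 1.52 with HA/Mg (log2 change 0.07 ± 0.067), and Mrps18c averaged 14.9 ± 2.03 FPKM with TABS and 15.2 ± 2.15 with HA/Mg (log2 change -0.02 ± 0.11). None passed the test (adjusted p = 0.480 to 0.947), and the groups overlapped in each.

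Across members the log2 change followed the GC content and the length of the transcript, as it did across all genes. Spearman's rho with GC content was 0.41 over the 78 members and 0.56 over 10157 genes, and with transcript length -0.29 over the members and -0.32 over all genes, with all points from the same 8 libraries. The higher members Mrpl54, Mrpl36 and Mrpl24 had transcripts of 604, 923 and 1339 bases with 60.4%, 50.9% and 49.4% GC. The lower members Mrpl1, Mrpl50, Mrps31, Mrpl47 and Mrps22 had 41.6%, 42.3%, 44.2%, 45.3% and 45.8% GC. In the lowest of 5 equal classes of genes by GC content the median log2 change was -0.21 over 2032 genes, of which 638 were lower, and -0.01 over the 12 members there, of which 3 were lower. In the highest class it was 0.09 over 2032 genes, of which 248 were higher, and 0.12 over 12 members, of which 1 was higher.

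**Figure D4:**
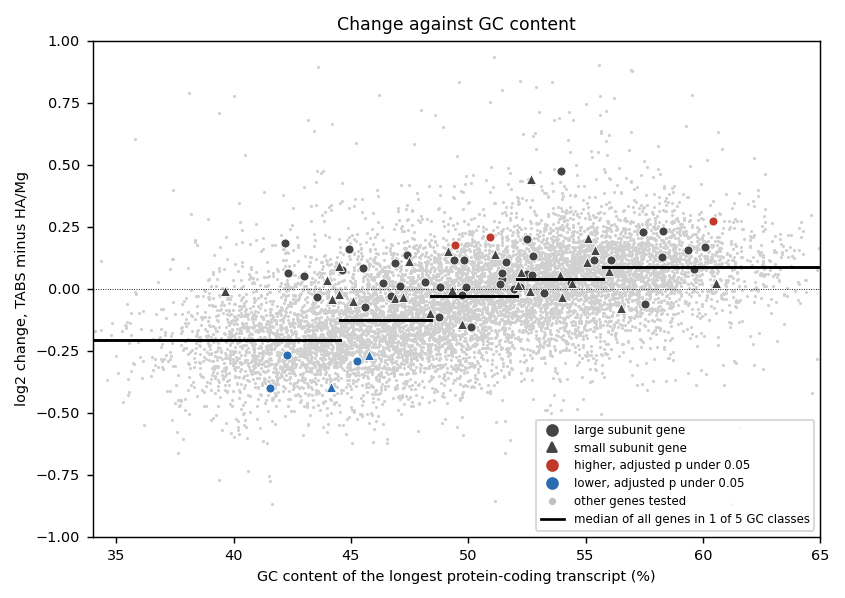
Log2 change (TABS minus HA/Mg, vertical) against the GC content in percent of the longest protein-coding transcript (horizontal) for large subunit genes (circles), small subunit genes (triangles) and the other genes tested (grey dots, 62 of 10157 genes lie outside the axes). Black lines are the medians of all genes in each of 5 equal classes by GC content, from -0.21 to 0.09, and the 5 members that were lower (blue) lie below 46% GC.

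With each library's trends on length and GC content removed, 6 of the 78 members were called (7.69%, against 6.98% of all genes tested). Mrps31 was the single one of the 8 to remain (log2 change -0.32 ± 0.066, adjusted p = 0.0311), and Mrpl18, Mrpl2, Mrpl51, Mrps34 and Mrps9 joined it. The other 7 kept their direction with smaller estimates. The log2 change was then 0.15 ± 0.044 for Mrpl24 (adjusted p = 0.0722), -0.23 ± 0.067 for Mrps22 (0.0723) and -0.24 ± 0.073 for Mrpl1 (0.0726). It was -0.15 ± 0.049 for Mrpl50 (0.0901), -0.18 ± 0.071 for Mrpl47 (0.138), 0.13 ± 0.074 for Mrpl36 (0.275) and 0.08 ± 0.049 for Mrpl54 (0.324). The median log2 change was 0.0026 for the large and -0.0084 for the small subunit, with -0.05 over all genes. With the trends taken on the longest transcript of any kind, a choice made after seeing the data, the large subunit's median was 0.048 and the small subunit's -0.0084. After this removal rho with GC content was -0.35 over the members and 0.018 over all genes.

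Head-to-head neighbours of the members included 4 genes that were lower with TABS, not far from the share of all genes. Each of the 4 stood beside a member that did not pass the test, as was true of 70 of the 78 members. A protein-coding gene on the opposite strand started within 1000 bases of 26 members (GENCODE M21 starts). Of these partners 21 were tested, with 0 higher and 4 lower in limma (19.0%). Of all genes 13.1% were lower and 18.1% were called in either direction. Mrpl57, a mitochondria-specific large subunit gene, had 12.9, 13.8, 16.4 and 14.3 FPKM in the TABS libraries and 12.8, 15.5, 13.3 and 13.1 in the HA/Mg libraries, and the groups overlapped. Its partner Ska3, a kinetochore gene that starts 49 bases away, had 4.38, 4.86, 4.87 and 5.10 FPKM in the TABS libraries and 8.08, 6.29, 6.72 and 7.31 in the HA/Mg libraries, with no overlap (log2 change -0.48 ± 0.078, adjusted p = 0.00984). The Ska3 call held without each library in turn.

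Mrpl51, another mitochondria-specific large subunit gene, had 7.26, 7.80, 7.76 and 7.92 FPKM in the TABS libraries and 6.59, 6.52, 7.47 and 6.55 in the HA/Mg libraries. HA/Mg replicate 7 alone reached into the TABS range. Its partner Ncapd2, a condensin gene 100 bases away, averaged 25.0 ± 0.725 FPKM with TABS and 28.6 ± 1.56 with HA/Mg (log2 change -0.19 ± 0.048, adjusted p = 0.0318). The other pairs of this kind were Mrpl13 with Mtbp, where the partner's log2 change was -0.32 ± 0.082, and Mrps18c with Helq, where it was -0.21 ± 0.058. The calls of Helq and Mtbp were lost without any 1 library other than HA/Mg replicate 6 (adjusted p = 0.0502 to 0.112), and that of Ncapd2 without any 1 library other than TABS replicate 8 and HA/Mg replicate 6 (0.0567 to 0.0939). With the length and GC trends removed, Ska3 (adjusted p = 0.0261) and Ncapd2 (0.0323) were still called, while Helq (0.0646) and Mtbp (0.0726) were not. In that setting the member Mrpl51 was called too, as it was under median-of-ratios scaling and quantile normalization. Mrpl13 and Mtbp share 330 exon bases on opposite strands.

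The ratio of member to partner was tested in 20 pairs, with Mrpl46 and Mrps11 counted as 1 pair. The difference in log2 ratio, TABS minus HA/Mg, was 0.54 for Mrpl57 over Ska3 and 0.34 for Mrpl51 over Ncapd2, each with an exact two-sided permutation p of 0.0286, the smallest that 4 against 4 libraries allow. Adjusted over the 20 pairs the exact p was 0.286 for both. With 4 against 4 libraries an adjusted p under 0.05 would have needed at least 12 pairs at that smallest p. The pairs were examined after the values of all genes had been computed.

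**Figure D5:**
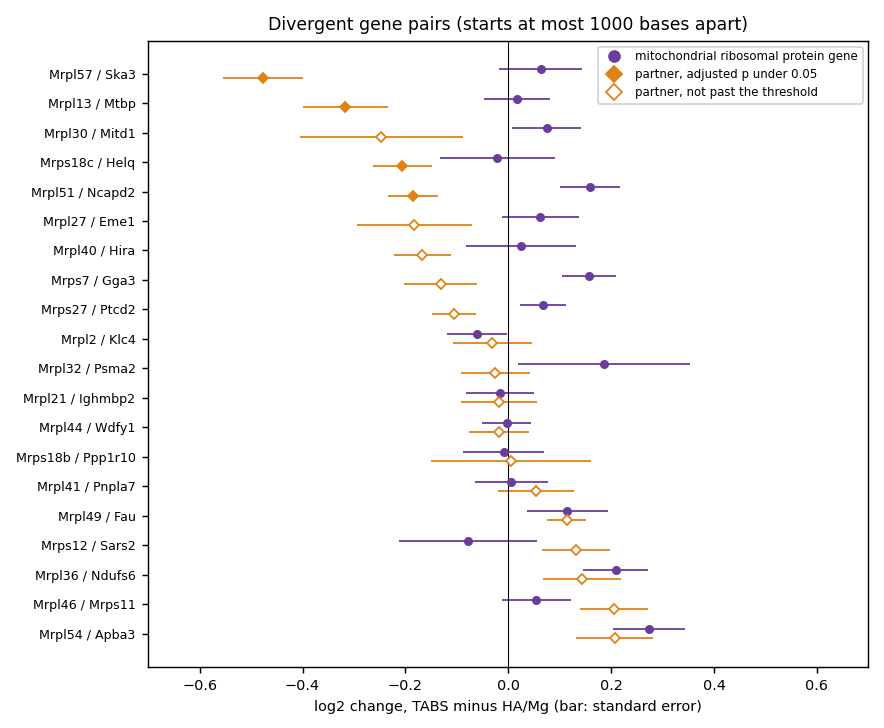
Log2 change (TABS minus HA/Mg, horizontal, bars for the standard error) of the member (circles) and its partner (diamonds, filled where the adjusted p is under 0.05) in the 20 head-to-head pairs with both genes tested, ordered by the partner's change. Ska3, Mtbp, Helq and Ncapd2 are lower with TABS while Mrpl57, Mrpl13, Mrps18c and Mrpl51 lie at -0.02 to 0.16.

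Promoters of 69 of the 78 members were found in RefSeq, and a gene was counted if any of its promoters held the letters. The ETS core CCGGAAG shown in capitals above (either strand) was found for 26 of the 69 members (37.7%). It was found for 23.7% of the 7425 genes tested that had a promoter and for 9.93% of all 27025 genes with a promoter. The letters AAGATGGC, a core bound by YY1, were found for 17.4% of these members, against 6.29% of the genes tested and 3.19% of all genes. CCAAT was found for 39.1%, against 43.5% and 41.1%, and TATAAA for 7.25%, against 7.96% and 15.7%. The palindromic NRF1 site was found for 4.35%, against 2.57% and 1.07%. Among the 7 called members with a promoter, 1 had the ETS core and 1 the YY1 core, and no searched motif contains another. These matches are letters in a window and say nothing of binding.

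Other genes of mitochondrial translation were examined as lists beside the members. Of 5 mitochondrial ribosomal proteins with other symbols 1 was called (20%, against 18.1% of all genes). Ptcd3, a small subunit protein, averaged 7.30 ± 0.203 FPKM with TABS and 8.60 ± 0.521 with HA/Mg and was lower with TABS (log2 change -0.21 ± 0.055, adjusted p = 0.0333). Of 12 translation factors 4 were called (33.3%, against 18.1% of all genes), 1 higher (8.33%, against 5.07%) and 3 lower (25%, against 13.1%). Tufm, the elongation factor that brings charged transfer RNA, had 79.4, 78.3, 80.1 and 80.2 FPKM with TABS, all above the 70.4, 70.0, 69.5 and 67.9 FPKM with HA/Mg (log2 change 0.19 ± 0.033, adjusted p = 0.0114), and its call held without each library in turn. Tufm was named after its values were seen, and with the length and GC trends removed its adjusted p was 0.233. The GTPase Guf1, related to elongation factors, averaged 2.97 ± 0.120 FPKM with TABS and 3.69 ± 0.250 with HA/Mg (log2 change -0.24 ± 0.060, adjusted p = 0.0286). The release factor Mtrf1 (log2 change -0.21 ± 0.061) and the elongation factor Gfm1 (-0.15 ± 0.044), the second of them named after its values were seen, were the others that were lower.

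Of 23 tested genes for assembly and rRNA modification Mtg1, a GTPase of large subunit assembly, was the single one called (4.35%, against 18.1% of all genes). It averaged 11.9 ± 0.647 FPKM with TABS and 9.97 ± 0.810 with HA/Mg (log2 change 0.24 ± 0.064, adjusted p = 0.0361). Of 16 tested genes for mitochondrial transcription and RNA stability 0 were higher and 3 lower in limma (18.8%, against 13.1% of all genes). Pnpt1, a mitochondrial polynucleotide phosphorylase, averaged 11.9 ± 0.743 FPKM with TABS and 14.9 ± 0.636 with HA/Mg (log2 change -0.30 ± 0.056, adjusted p = 0.0132). Twnk, the helicase of mitochondrial DNA, had a log2 change of -0.27 ± 0.081 and shares 507 exon bases on the other strand with the member Mrpl43, which did not pass the test (0.04 ± 0.042). Lrpprc, which stabilises mitochondrial messenger RNA, had -0.25 ± 0.067 and was named after its values were seen. Of 15 tested mitochondrial aminoacyl-tRNA synthetases Nars2 was the single one called (6.67%, against 18.1% of all genes). It had 1.63, 1.81, 1.69 and 2.26 FPKM in the TABS libraries and 3.67, 2.43, 3.59 and 3.48 in the HA/Mg libraries (log2 change -0.59 ± 0.11, adjusted p = 0.0139).

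The RNAs that these ribosomes translate were lower in part. Of the 13 protein-coding genes of mitochondrial DNA 4 were lower with TABS (30.8%, against 13.1% of all genes). All of them encode subunits of complex I, but so do mt-Nd2, mt-Nd3 and mt-Nd6, which did not pass the test. Of the 13 genes, 12 had a negative estimate (median log2 change -0.17). The median GC content of the 13 was 37.1%, within the lowest of the 5 GC classes, where 638 of 2032 genes were lower. With the length and GC trends removed, the adjusted p of the 4 was 0.0637 to 0.116. mt-Nd1 had 497, 578, 399.8 and 520.2 FPKM in the TABS libraries and 782, 555, 868 and 999.6 in the HA/Mg libraries, with an overlap through HA/Mg replicate 6 (log2 change -0.66 ± 0.17, adjusted p = 0.0328). mt-Nd4l averaged 160 ± 22.8 FPKM with TABS and 204 ± 15.3 with HA/Mg (log2 change -0.36 ± 0.098), and mt-Nd4 (-0.33 ± 0.062) and mt-Nd5 (-0.27 ± 0.055) were named after their values were seen. The summed FPKM of the 13 genes was 15774 to 16803 with TABS and 17536 to 18313 with HA/Mg, with no overlap. The largest part of this sum was mt-Co1, with 8969 ± 314 FPKM with TABS and 9643 ± 534 with HA/Mg. For mt-Co1 itself the groups overlapped and limma made no call (adjusted p = 0.342). The 2 ribosomal RNAs did not pass the test, although mt-Rnr1 had 25.9 FPKM in HA/Mg replicate 7 where the other HA/Mg libraries held 289 to 383 FPKM. mt-Rnr1 held 244 to 315 FPKM in TABS libraries, and mt-Rnr2 averaged 26.1 ± 5.59 FPKM with TABS and 29.3 ± 6.37 with HA/Mg. Over all 8 libraries mt-Rnr1 averaged 265 and mt-Rnr2 27.7 FPKM, against 9306 FPKM for the messenger RNA mt-Co1. How far library preparation set the levels of these ribosomal RNAs was not tested.

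Of 9 tested regulators of nuclear genes for mitochondria 2 were lower with TABS (22.2%, against 13.1% of all genes). Yy1, a zinc finger factor, averaged 10.2 ± 0.836 FPKM with TABS and 13.2 ± 1.08 with HA/Mg (log2 change -0.34 ± 0.075, adjusted p = 0.0193), and Gabpb1, a subunit of an ETS-family complex, averaged 3.11 ± 0.129 FPKM with TABS and 3.96 ± 0.419 with HA/Mg (log2 change -0.27 ± 0.071, adjusted p = 0.0343). The calls of Ptcd3, Guf1, Twnk and Gabpb1 were lost without any 1 library other than HA/Mg replicate 6, and those of Pnpt1 and mt-Nd4 held without each in turn. Single libraries also ended the calls of Mtrf1, Mtg1, mt-Nd1 and Lrpprc (TABS replicates 5, 7 and 8 and HA/Mg replicates 5, 7 and 8), of mt-Nd4l and Gfm1 (TABS replicates 5, 6 and 8 and the same HA/Mg replicates), of Yy1 (HA/Mg replicates 5, 7 and 8), of mt-Nd5 (HA/Mg replicates 5 and 7) and of Nars2 (HA/Mg replicate 5). With the length and GC trends removed, the calls that remained among these genes were those of Twnk, Nars2 and Yy1.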

How the data were processed

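Total RNA of 8 RAW264.7 libraries was sequenced, per the labels' protocols after TRIzol extraction, with the NEBNext Ultra kit and paired-end reads from a NovaSeq. The authors deposited 1 table of FPKM values for 55335 Ensembl genes. Per the submitters' processing notes, fastp, STAR, DESeq2 and GRCm38 were used, while their versions, order, annotation and use of strand were not given in the labels used here. Because FPKM divides by a total, abundant transcripts shift all others, and differences in GC or length recovery between libraries remain.

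The GENCODE M21 annotation held 55154 of the identifiers. TABS and HA/Mg were compared by limma 3.58.1 (R 4.3.3) on log2(FPKM + 1), two-sided, with a mean-variance trend and Benjamini-Hochberg adjustment over the 10161 genes that reached 1 FPKM in 4 or more of 8 libraries. The log scale understates changes of low genes. A gene was called at an adjusted p under 0.05. Low values were whole fragments (within 0.05) in only 28.9% to 33.8% of cases, so depth is unknown and no count test was run. No 2 libraries shared more than 0.0197% of values. The steps were checked on simulated data.

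Members and lists were chosen with earlier results of these data known. Named members were those called, 12 fixed by role, and the 3 highest and 3 lowest of each subunit. Of each other list up to 2 called genes with the largest change were named, or the 2 smallest p-values. Alternatives were pseudocounts of 0.1 and 0.5, no filter, a mean of at least 5 FPKM, median-of-ratios, equal-sum and quantile scaling, protein-coding genes only, length and GC trends removed (natural splines with 4 degrees of freedom), a block for the replicate number, and omission of each library. Removal of trends on the longest transcript of any kind was chosen after seeing the data.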

Additional observations from a re-analysis of the deposited data

Results flagged for a closer look

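In 9 of 84 groups of 4 values examined, over 40 members and the sums of the lists, 1 library stood far from its group. Dixon's test of the gap over the group's range was used, which chance alone would pass in about 1 in 20 groups chosen beforehand. The 40 members included those called in limma and some picked after their values were seen. The 9 of 84 can therefore not be set against that rate. With TABS, Mrps22 was at 6.38 FPKM against 7.30 to 7.38 in the others (gap over range 0.9264), Mrps35 at 3.61 against 5.02 to 5.24 (0.8661) and Mrpl52 at 33.9 against 38.5 to 39.3 (0.8557). With HA/Mg, Mrpl51 was at 7.47 against 6.52 to 6.59 FPKM (0.9283), Mrpl1 at 8.24 against 7.37 to 7.44 (0.913), Mrpl32 at 6.38 against 3.84 to 4.07 (0.9096), Mrps18c at 18.3 against 13.7 to 14.4 (0.8575) and Mrps11 at 8.20 against 7.36 to 7.49 (0.8455). The summed FPKM of the small subunit was 580.4 in HA/Mg replicate 7, and the others of that group held 556 to 560.0 (0.8293).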

How the results depend on the processing

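All 8 called members kept their direction under every alternative run, and Mrps31 was also called under each of the 10 alternatives that use all 8 libraries without a block. Over all genes the count was 808 without a filter, 709 with length and GC trends removed and 783 with these trends on the longest transcript of any kind. Under median-of-ratios scaling it was 1895. For the large subunit it was 2, 3, 3 and 10 under the same settings, and for the small subunit 1 without a filter and 4 under median-of-ratios scaling. The median log2 change of the large subunit was 0.12 under median-of-ratios scaling and 0.0026 with the trends removed (0.0480 on the longest transcript of any kind), and that of the small subunit 0.0696 under median-of-ratios scaling. Leaving out 1 library gave 429 (without HA/Mg replicate 5) to 3320 (without HA/Mg replicate 6) genes in all, 2 to 10 in the large and 1 to 4 in the small subunit, with medians of 0.034 to 0.096 and 0.0002 to 0.052. The cause of these shifts was not tested.

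Replicate numbers are shared between the groups, but same-numbered libraries did not deviate together (correlations of 0.0106, -0.275, -0.16 and 0.128 for replicates 5 to 8). The numbers were not taken as pairs. With the replicate number as a block, 0 genes were called in limma, 0 of them in the large and 0 in the small subunit, and the smallest adjusted p was 0.0589. With the block and the trends removed, 3 genes, 0 large and 0 small subunit genes were called, and the large subunit's median was 0.0026. With 4 libraries a group and a median standard error of 0.066, small log2 changes of single members were not detectable, and depth is unknown.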
